A study of Mus musculus with 7 samples.

Results

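Early and late cells of the mouse distal convoluted tubule were compared within 1 cluster of a single-cell RNA sequencing data set of whole kidney. The authors' cluster 5, the distal convoluted tubule cluster, held 8544 of the 43745 cells in the matrix. Within it, a cell was called early when it carried at least 2 UMIs (unique molecular identifiers, 1 for each captured transcript) of Pvalb and 0 of Calb1. It was called late when it carried at least 2 UMIs of Calb1 and 0 of Pvalb. The rule gave 533 early and 2826 late cells, together 3359 cells. The remaining cells of the cluster were 1858 with at least 2 UMIs of both genes, 1066 with neither, and 2261 with a single UMI of at least 1 of the 2. The cells were thus chosen by their measured Pvalb and Calb1 UMIs. Both genes were removed from the counts, and every result below concerns other genes.

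The cells came from 7 mice of the C57BL/6 strain aged 4 to 8 weeks. Of these, 4 were wild type and 3 carried a Cre and reporter combination, among them those that the labels name Cdh16CremTmG and SclCremTmG, and the labels name no treatment. The first part of such a name is the gene whose promoter drives Cre. The sex of the mice is not given in the sources used here. Libraries are known only by the number that ends each barcode, and no label links these numbers to genotypes, so all 7 entered as kidneys of 1 group and no genotypes were compared.

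The distal convoluted tubule lies between the thick ascending limb of the loop of Henle and the connecting tubule. Its cells take up sodium chloride through the thiazide-sensitive cotransporter encoded by Slc12a3, under control of WNK kinases, and take up magnesium through TRPM6 channels. Its early portion contains the cytosolic calcium buffer parvalbumin (Pvalb). Its late portion contains calbindin (Calb1) and shares with the connecting tubule the route for calcium reabsorption, in which calcium enters through TRPV5, is carried by calbindins, and leaves through the sodium-calcium exchanger and plasma membrane pumps. The late portion is also where sensitivity to aldosterone begins, through the enzyme HSD11B2 and the epithelial sodium channel.

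The 7 libraries did not hold the classes in like proportion. Early cells made up 75.0% of the early and late cells of library 3 and 69.1% of those of library 4, against 6.76% to 25.0% in the other 5 libraries. In libraries 3 and 4 the cells with both markers made up 59.0% and 54.4% of cluster 5, and Pvalb itself stood at 3646 and 3799 CPM in the cluster, against 380.1 to 764 elsewhere. Library 3 had 14 late cells and library 7 had 28 early cells, the fewest of each class. Each result between early and late cells that changed its call without libraries 3 and 4 is given with and without them. For double-positive cells only the counts of genes were taken without them. Over the pooled cells, median UMIs per cell were 2177 in early, 2521 in late and 3227 in double-positive cells. Within libraries, the early median was higher than the late one except in library 7 (1786.5 against 2181). The library medians averaged 2034 in early and 1964 in late cells. The median mitochondrial share of the pooled cells was 32.2% in early and 31.3% in late cells. A UMI of Pvalb was seen in 3.16% and of Calb1 in 13.7% of the cells of cluster 3, a cluster led by proximal tubule genes, of median depth 2281 UMIs in which neither gene belongs, and at least 2 UMIs in 0.242% and 2.19%. Among the early and late cells, 8 barcode sequences occurred in more than 1 library, in 16 cells.

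**Figure D1:**
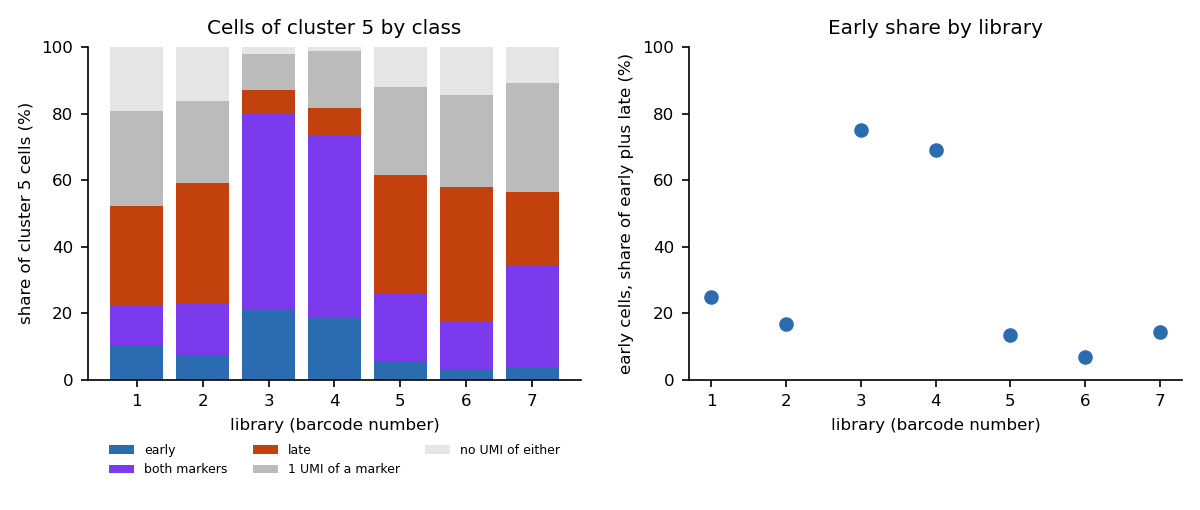
Left, share of cluster 5 cells (%) in each class, by library. Right, early cells as a share (%) of early plus late cells in each library. Libraries 3 and 4, at 75.0% and 69.1%, lie apart from the other 5, which run from 6.76% to 25.0%.

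The distal convoluted tubule label was checked against the markers Slc12a3 and Wnk1. Egf and Trpm6, also listed as markers, are described below. With every cell thinned to 1000 UMIs, Slc12a3 was seen in 88.5% ± 2.69 of early cells and 55.1% ± 22.5 of late cells (mean ± SD over 7 libraries), against 2.5% ± 1.06 in cluster 3. Before thinning the shares were 93.98%, 63.9% and 5.81%. The kinase gene Wnk1, whose kidney-specific form belongs to this segment, was seen in 81.1% ± 4.18 of early and 78.03% ± 7.35 of late cells, and in 7.56% ± 1.74 of cluster 3. Most early cells thus carried Slc12a3 and Wnk1, and late cells carried Slc12a3 in a share that varied widely between libraries. The names early and late stand below for the rule alone.

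For each library the UMIs of its early cells and of its late cells were summed, and the sums were compared with edgeR's quasi-likelihood test with a term for each library. Levels are given as CPM, the UMIs of a gene brought to a common total for every sum, as the lowest to the highest of the 7 libraries with the median. Of 1153 genes that passed the filter on low counts, 126 were higher in late cells (10.9% of genes tested) and 152 were lower (13.2%) at an adjusted p under 0.05. A change of at least 2-fold was fitted for 19 of the higher and 12 of the lower genes. The libraries of the 2 classes did not overlap at all for 21 of the tested genes in the direction higher in late cells (1.82%) and for 15 in the direction lower (1.3%). Without TMM scaling, which shifts the median log2 fold of all genes to -0.18, the split was 68 higher and 305 lower. Without library 5, the deepest, 84 were higher and 88 lower of 927 tested. The 3 largest rises were in Klk1, S100g and Ltc4s, and the 3 largest falls in Wfdc15b, Pigr and Umod. Without libraries 3 and 4, 3565 genes passed the filter, and 198 were higher and 218 lower, among them 92 of the 126 and 145 of the 152.

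**Figure D2:**
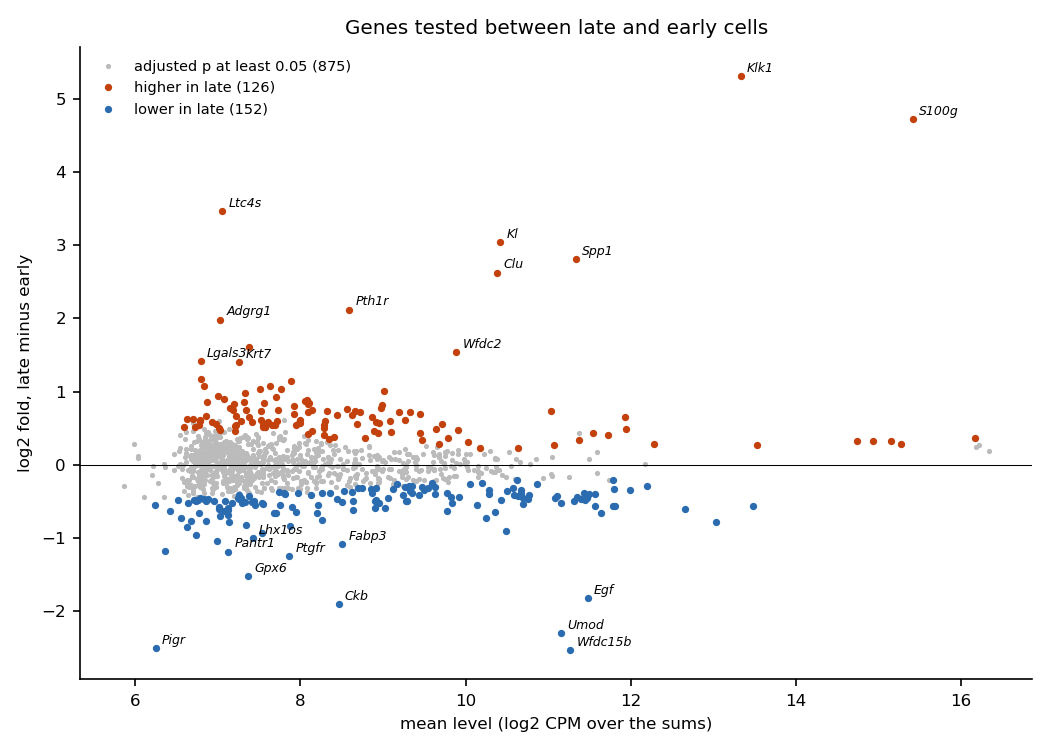
Log2 fold of late over early cells (vertical axis) against the mean level in log2 CPM (horizontal axis) for the 1153 genes tested; each point is a gene, coloured where its adjusted p is under 0.05. Named points are genes described in the text with a fold of at least 2, from Klk1 at 5.32 to Wfdc15b at -2.54.

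Genes of calcium handling rose furthest. S100g, which encodes the small vitamin D-dependent calcium buffer of the distal nephron, ran from 124 to 6883 CPM (median 2738) in early cells and from 25147 to 100814 CPM (median 64991) in late cells. Every late sum lay above every early sum (log2 fold 4.72 ± 0.26 (SE), edgeR adjusted p = 1.88e-12), and the gene took 2.43% to 9.34% of all UMIs of the late sums. Library 7 was the lowest for this gene in both classes. Klk1, encoding tissue kallikrein, a serine protease secreted by the connecting tubule, ran from 197 to 696 CPM (median 355) in early and from 5539 to 35496 CPM (median 14077) in late cells. The classes did not overlap (log2 fold 5.32 ± 0.19 (SE), edgeR adjusted p = 3.97e-16). Klk1 has near-identical neighbouring copies, among which the authors' counting may have divided reads, so its level is uncertain to that extent.

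Kl encodes klotho, the co-receptor of the phosphate hormone FGF23. It ran from 115 to 353 CPM (median 193) in early cells and from 1313 to 2410.1 CPM (median 1915) in late cells, again without overlap (log2 fold 3.05 ± 0.12 (SE), edgeR adjusted p = 5.33e-15). The parathyroid hormone receptor gene Pth1r ran from 74.9 to 147 CPM (median 96.6) and from 280.1 to 663 CPM (median 455), with no overlap (log2 fold 2.12 ± 0.14 (SE), edgeR adjusted p = 2.65e-11). The vitamin D receptor gene Vdr ran from 30.4 to 126 CPM (median 96.4) in early cells and from 125 to 442 CPM (median 231) in late cells. It was higher in late cells of 7 of 7 libraries, although the lowest late library reached into the early range (log2 fold 1.15 ± 0.16 (SE), edgeR adjusted p = 1.15e-05). Of the 12 listed genes of transcellular calcium transport, these 5 passed the filter and all 5 were higher, against 10.9% of all genes tested. Their median log2 fold was 3.05 beside 0.00 over all genes tested.

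**Figure D3:**
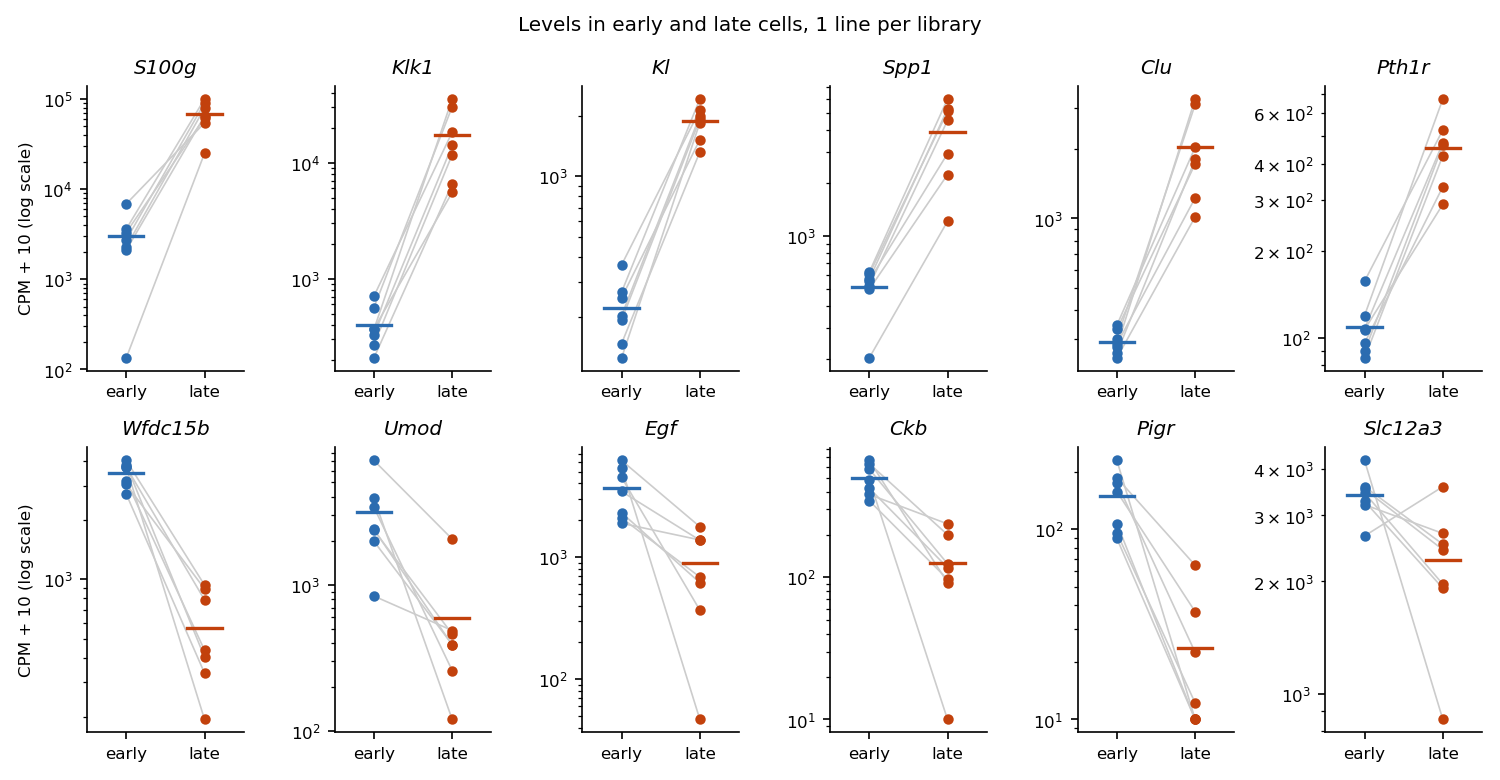
Levels of 12 genes in early and late cells, as CPM plus 10 on a log scale; each point is a library, lines join the 2 classes of a library and bars mark the mean of 7 libraries. The first 6 genes are higher in late cells in every library; of the last 6, only Slc12a3 has a library, number 7, in which the late level is the higher.

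The other 7 calcium genes were too sparse for the filter and were tested in a fit without it, in which 1.42% of 14605 genes were higher and 1% lower. Trpv5, the apical calcium channel, gave 0 UMIs in the early cells of all 7 libraries and 714 in late cells, at 52.5 to 184 CPM. A count of 0 over all early cells allows up to 2.14 CPM, so that Trpv5 was at least 39.7-fold higher over the pooled late cells (edgeR adjusted p = 1.44e-29). Trpv6, the related channel, gave 0 and 53 UMIs, at least 2.94-fold higher (edgeR adjusted p = 0.0343). Its call was lost without library 1, 2, 4, 5 or 6 (edgeR adjusted p = 0.0542 to 0.808) and without libraries 3 and 4 (edgeR adjusted p = 0.0554).

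Of the exit routes for calcium, Slc8a1 and Atp2b4 were higher in late cells. Slc8a1, the sodium-calcium exchanger, gave 2 early and 457 late UMIs, a pooled ratio of 38.1 (exact 95% interval 10.5 to 315), of counting error only (edgeR adjusted p = 4.42e-18). The plasma membrane pump gene Atp2b4 ran from 6.08 to 52.99 CPM in early and from 84.7 to 184 CPM in late cells, without overlap (fitted log2 fold 1.88, edgeR adjusted p = 6.17e-10). Its relative Atp2b1 lay at 66.3 ± 30.5 CPM and 73.01 ± 36.5 CPM (mean ± SD, n = 7) and did not pass the test (fitted log2 fold -0.16, edgeR adjusted p = 0.943). At 1000 UMIs per cell Trpv5 was seen in 0 of 510 early cells, which allows a share of up to 0.588%, and in 7.65% ± 2.35 of late cells (mean ± SD over libraries). In cluster 3 the share was 0.0291% ± 0.04997.

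S100g was also seen in cells of other clusters, and whether free RNA in the droplets gave this was not tested. It was seen in 59.9% ± 24.7 of thinned early cells and 94.2% ± 12.6 of late cells, but also in 38.6% ± 21.8 of cluster 3 cells, which should lack it. Its level was 668 ± 506 CPM in cluster 3 and 1213 ± 804 in cluster 4, the loop of Henle cluster (mean ± SD, n = 7, without the scaling factors). Early cells, at 3008 ± 2048 CPM with the scaling factors, were above cluster 3 in the mean. In library 7 the early cells had 124 CPM, which is below the mean of cluster 3 over libraries. Klk1 was seen in 28.5% ± 6.66 of early, 86.1% ± 11.2 of late and 7.89% ± 2.63 of cluster 3 cells at 1000 UMIs.

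The 150 bases before the start of transcription are shown for S100g, Klk1 and Kl, which moved together, and for Wfdc15b and Umod, which moved the other way, so that their promoters can be compared. They are from RefSeq on GRCm38.p6, read 5′ to 3′ on the strand of the gene, and end at the base before the start. Capitals mark matches to AGGTCA, the hexamer bound by nuclear receptors such as the vitamin D receptor, searched on both strands. The S100g window is chrX:162964600-162964749 on the minus strand, the Klk1 window chr7:44225210-44225359 on the plus strand and the Kl window chr5:150952457-150952606 on the plus strand. The Wfdc15b window is chr2:164221664-164221813 and the Umod window chr7:119479263-119479412, both on the minus strand.
S100g: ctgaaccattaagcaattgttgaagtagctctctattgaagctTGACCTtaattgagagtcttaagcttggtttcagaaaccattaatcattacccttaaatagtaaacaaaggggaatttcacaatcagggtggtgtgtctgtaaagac
Klk1: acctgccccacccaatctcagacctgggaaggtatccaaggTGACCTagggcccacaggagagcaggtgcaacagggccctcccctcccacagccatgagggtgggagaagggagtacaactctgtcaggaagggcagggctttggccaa
Kl: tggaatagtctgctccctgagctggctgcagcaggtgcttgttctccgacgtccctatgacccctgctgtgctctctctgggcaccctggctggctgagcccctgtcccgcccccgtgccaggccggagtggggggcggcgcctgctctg
Wfdc15b: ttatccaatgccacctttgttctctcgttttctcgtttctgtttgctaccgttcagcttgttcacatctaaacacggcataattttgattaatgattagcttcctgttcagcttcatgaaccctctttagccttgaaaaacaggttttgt
Umod: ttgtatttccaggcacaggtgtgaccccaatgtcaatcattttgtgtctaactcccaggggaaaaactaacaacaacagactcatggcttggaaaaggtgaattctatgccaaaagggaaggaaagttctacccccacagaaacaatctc
S100g and Klk1 each held 1 match on the opposite strand, beginning 107 and 109 bases before the start, and the other 3 windows held none. Of 32851 windows of this length in the table, 8.58% held AGGTCA. The hexamer GTTAAT, bound by HNF1 factors, was in none of the 5 and in 3.71% of all windows. Such matches describe the letters and not bound sites.

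Of the genes of aldosterone sensitivity, Scnn1b, Scnn1g and Hsd11b2 were nearly absent from early cells and present in late cells. The 15 listed genes together summed to 486 to 899 CPM in early and 855 to 1713 CPM in late cells, with none at 0 in early cells. The channel subunit gene Scnn1b ran from 0 to 21.4 CPM (median 0) in early cells and from 60.02 to 258 CPM (median 128) in late cells. No early library reached the lowest late library (fitted log2 fold 5.24, edgeR adjusted p = 3.34e-31). Scnn1g gave 1 UMI in all early cells and 546 in late cells, a pooled ratio of 91 (exact 95% interval 16.3 to 3601), and its late levels ran from 30.01 to 214 CPM (median 101) (edgeR adjusted p = 1.54e-25). Hsd11b2, which inactivates glucocorticoids and so leaves the mineralocorticoid receptor to aldosterone, gave 7 early UMIs and 1170 late UMIs. It ran from 37.5 to 589 CPM (median 222) in late cells and up to 24.3 CPM in early cells (fitted log2 fold 5.07, edgeR adjusted p = 4.32e-42).

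The third channel subunit differed from these. Scnn1a was present in early cells at 97.2 to 207 CPM (median 171) and in late cells at 154 to 263 CPM (median 233). It was higher in late cells of 7 of 7 libraries, but the ranges overlapped and the test was not passed (log2 fold 0.39 ± 0.14 (SE), edgeR adjusted p = 0.0512). Without library 7 it was passed (0.41, edgeR adjusted p = 0.0416). The serine protease gene Tmprss2 was higher (log2 fold 0.85 ± 0.17 (SE), edgeR adjusted p = 0.000513), at 106 ± 36.3 CPM in early and 200.5 ± 68.1 CPM in late cells (mean ± SD, n = 7). Of the 15 genes listed for aldosterone response, 3 passed the filter and 1 of these was higher, against 10.9% of all genes tested. Of the 12 outside it, Scnn1b, Scnn1g and Hsd11b2 were higher in the fit without a filter, against 1.42% of all genes there.

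Late cells differed by whether they carried Slc12a3. A UMI of Slc12a3 was found in 2131 late cells (median 2765 UMIs per cell) and not in the other 695 (median 1869). Hsd11b2 lay at 23.1 ± 19.2 CPM in the late cells with Slc12a3 (6 libraries with at least 5 such cells) and at 558 ± 196 CPM in those without it (7 libraries). These ranges did not overlap, at most 47.8 against at least 276 CPM. Scnn1b lay at 72.5 ± 23.3 and 208 ± 60.4 CPM, and Klk1 at 9454 ± 5836 and 23470.1 ± 7676 CPM. Trpv5, at 69.1 ± 40.5 and 103 ± 21.8 CPM, and Kl, at 1675 ± 396 and 1799 ± 424 CPM, were found in both groups with less difference. The split used a measured gene and differs in depth, so these values are a description without a test. The Hsd11b2 level was thus high in the late cells without a Slc12a3 UMI and low in those with one.

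All 7 connecting tubule markers on the list, namely S100g, Klk1, Trpv5, Slc8a1, Scnn1b, Scnn1g and Hsd11b2, were higher in late cells in the fit without a filter, against 1.42% of all genes there. Their summed level was 483 to 7152 CPM in early and 30934 to 119768 CPM in late cells. S100g and Klk1 made up nearly all of it, at means of 68466 and 17451 CPM of a mean sum of 86598 CPM in late cells. The 7 genes are the same as those given above for calcium and aldosterone. In early cells 1 of the 7, Trpv5, was at 0. Connecting tubule cells and late distal convoluted tubule cells within the class cannot be told apart by the rule. Principal cell markers moved in the same direction: their sum over 8 genes was 24.5 to 72.9 CPM in early and 97.5 to 428 CPM in late cells, with 2 of them at 0 in early cells. Of these 8, 5 were higher in the fit without a filter, against 1.42% of all genes there. Among the 5 were the matrix protein gene Npnt, at 17.6 ± 20.5 CPM and 105 ± 23.2 CPM (mean ± SD, n = 7), and the water channel gene Aqp2, at 14.5 ± 9.71 CPM and 77.5 ± 95.9 CPM. After cells with at least 2 principal marker UMIs were left out (2504 late cells remained), Scnn1b, Hsd11b2 and Trpv5 (edgeR adjusted p = 5.12e-25, 4.29e-23 and 1.51e-24) were still higher.

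Secreted proteins divided the classes in opposite directions. All 8 listed members that passed the filter were called, 5 higher and 3 lower. Among all genes tested, 10.9% were higher and 13.2% lower. Spp1, which encodes osteopontin, an inhibitor of crystal growth in urine, ran from 193 to 612 CPM (median 548) in early cells and from 1200.3 to 5965 CPM (median 4500.3) in late cells (log2 fold 2.81 ± 0.12 (SE), edgeR adjusted p = 9.21e-15). Clu, the secreted chaperone clusterin, is not on that list and was taken by the naming rule. It ran from 239 to 336 CPM (median 276) and from 1007 to 3277 CPM (median 1789.6) (log2 fold 2.62 ± 0.14 (SE), edgeR adjusted p = 5.45e-13). Neither gene showed any overlap of the classes.

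Wfdc2, a secreted protein of the whey acidic protein family, ran from 176 to 559 CPM (median 379.8) in early and from 870.2 to 1766 CPM (median 1098) in late cells, also without overlap (log2 fold 1.54 ± 0.099 (SE), edgeR adjusted p = 2.65e-11). Its relative Wfdc15b went the other way, from 2709 to 4017 CPM (median 3707) in early cells against 184 to 926 CPM (median 427) in late cells. It was the gene with the most negative fold of those tested (log2 fold -2.54 ± 0.15 (SE), edgeR adjusted p = 4.06e-12), and no late library reached the early range. Defb1, a defensin gene, was higher in late cells (log2 fold 0.65 ± 0.16 (SE), edgeR adjusted p = 0.00369) and was not called without libraries 3 and 4 (0.23, edgeR adjusted p = 0.0687).

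Umod and Egf fell together. Umod encodes uromodulin, the most abundant urinary protein, made mainly in the thick ascending limb. It ran from 828 to 7051 CPM (median 2387) in early and from 110.5 to 2041 CPM (median 381) in late cells and was lower in late cells of 7 of 7 libraries, with some overlap between libraries (log2 fold -2.30 ± 0.19 (SE), edgeR adjusted p = 4.99e-09). Egf, encoding the growth factor precursor that stimulates TRPM6, ran from 1876 to 6151 CPM (median 3426) in early and from 36.8 to 1757 CPM (median 675) in late cells, without overlap (log2 fold -1.82 ± 0.24 (SE), edgeR adjusted p = 4.31e-06). At 1000 UMIs per cell Egf was seen in 88.3% ± 8.53 of early and 32.8% ± 16.7 of late cells, against 3.58% ± 1.43 in cluster 3. Umod and Egf are also high in cluster 4, at 8499 ± 1837 and 5807 ± 1235 CPM (mean ± SD, n = 7), and so is Wfdc15b, at 4002 ± 694 CPM.

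Of the 8 loop of Henle markers, Umod and Sostdc1 passed the filter. Sostdc1, a secreted BMP antagonist, lay at 428 ± 162 CPM in early and 410.2 ± 109 CPM in late cells and did not pass the test (log2 fold -0.18 ± 0.15 (SE), edgeR adjusted p = 0.455). The cotransporter gene Slc12a1, which defines the loop and stood at 4336 ± 578 CPM in cluster 4, lay at 12.5 ± 17.04 CPM in early and 14.9 ± 11.3 CPM in late cells (fitted log2 fold 1.04, edgeR adjusted p = 0.337). Ptger3 (39 early and 34 late UMIs; fitted log2 fold -2.40, edgeR adjusted p = 1.08e-05) and Cldn19 (14 and 12 UMIs; fitted log2 fold -2.65, edgeR adjusted p = 0.0215) were lower in late cells, though not called without library 5 (edgeR adjusted p = 0.0696 for Ptger3 and 0.969 for Cldn19), nor Cldn19 without library 2 (edgeR adjusted p = 0.0547). The sum of the 8 loop markers was 1379.6 to 7454 CPM in early and 516 to 2377 CPM in late cells, with 1 of the 8 at 0 in early cells. Umod gave 3120 of the mean sum of 3622 CPM in early cells and 584 of 1048 CPM in late cells. Sostdc1 gave most of the rest. Umod is on that list, so leaving out cells with at least 2 loop marker UMIs removes cells by their Umod counts, and 72 early and 1329 late cells of 5 libraries with both classes remained. There Egf was still lower (-1.47, edgeR adjusted p = 0.00723) and so was Wfdc15b (-2.77, edgeR adjusted p = 3.68e-08). Without cells bearing proximal tubule markers, which left 25 early and 172 late cells of 2 libraries with both classes, Egf was not called (-0.53, edgeR adjusted p = 0.352).

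Other genes that fell had varied roles. Ckb, the brain-type creatine kinase, ran from 336 to 654 CPM (median 477) in early and from 0 to 228 CPM (median 107) in late cells (log2 fold -1.91 ± 0.18 (SE), edgeR adjusted p = 2.76e-08). Pigr, which carries immunoglobulins across epithelia, ran from 79.5 to 220.2 CPM (median 148) and from 0 to 54.7 CPM (median 2.201) (log2 fold -2.50 ± 0.23 (SE), edgeR adjusted p = 2.74e-08). Gpx6, a glutathione peroxidase gene, ran from 134 to 340.2 CPM (median 159) and from 35.5 to 117 CPM (median 53.5) (log2 fold -1.52 ± 0.16 (SE), edgeR adjusted p = 1.43e-07). None of these 3 showed overlap between early and late libraries. The prostaglandin F receptor gene Ptgfr had a log2 fold of -1.25 ± 0.17 (SE; edgeR adjusted p = 1.15e-05) and the long noncoding RNA gene Pantr1 -1.19 ± 0.16 (SE; edgeR adjusted p = 8.82e-06), both also without overlap. Fabp3, a fatty acid carrier, fell by 1.08 on the log2 scale and the noncoding Lhx1os by 1.00 (edgeR adjusted p = 6.49e-07 and 0.000188). Nabp1, encoding a single-stranded DNA-binding protein (-0.96), and the RNA-binding Larp1b (-0.93) completed the 12 largest falls of the naming rule with the same sign in all 7 libraries (edgeR adjusted p = 0.000129 and 3.31e-05).

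The 12 largest rises included 7 genes described above, Klk1, S100g, Kl, Spp1, Clu, Pth1r and Wfdc2. Ltc4s, a leukotriene synthase gene, gave 18 early and 948 late UMIs and ran from 89.9 to 268 CPM (median 199) in late cells (log2 fold 3.47 ± 0.35 (SE), edgeR adjusted p = 1.19e-07). Adgrg1, an adhesion receptor gene, had a log2 fold of 1.98 ± 0.22 (SE; edgeR adjusted p = 3.50e-07). The galectin gene Lgals3 (1.42) and the keratin gene Krt7 (1.41) were also higher in late cells of 7 of 7 libraries (edgeR adjusted p = 3.66e-06 and 2.38e-05).

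The cotransporter gene and those of its regulators that passed the filter shifted by less than 2-fold. Slc12a3 ran from 2635 to 4196 CPM (median 3437) in early cells and from 847 to 3571 CPM (median 2421) in late cells. It was lower in late cells of 6 of 7 libraries and higher in library 7, and the classes overlapped (log2 fold -0.56 ± 0.15 (SE), edgeR adjusted p = 0.00819). This call was lost with cells thinned to 1000 UMIs (-0.33, edgeR adjusted p = 0.0934), and the sign turned without cells bearing loop markers (0.076, edgeR adjusted p = 0.904). Ppp1r1a, encoding a phosphatase inhibitor, ran from 1270.3 to 2076 CPM (median 1369.8) in early and from 517 to 1263 CPM (median 779.5) in late cells (log2 fold -0.91 ± 0.10 (SE), edgeR adjusted p = 6.93e-07), with just no overlap. Wnk1 was higher in late cells of 6 of 7 libraries (log2 fold 0.44 ± 0.12 (SE), edgeR adjusted p = 0.00752) at 2005 ± 405 CPM and 2736 ± 298 CPM (mean ± SD, n = 7), a call lost without TMM scaling (0.22, edgeR adjusted p = 0.162). Wnk4, the kinase that is inherited in mutated form in familial hypertension with high potassium, missed the threshold (log2 fold -0.25 ± 0.093 (SE), edgeR adjusted p = 0.0531) and passed it without library 2 or library 3 (edgeR adjusted p = 0.047 and 0.0456). Of the 14 genes of this list, 5 passed the filter, and 1 was higher and 2 lower, while Sorl1 at -0.22 and Wnk4 were not called. Among all genes tested, 10.9% were higher and 13.2% lower.

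Of the 15 magnesium genes listed, 6 passed the filter. Of these, 3 were lower in late cells and none higher, against 13.2% and 10.9% of all genes tested. Besides Egf they were Fxyd2, the sodium pump regulator mutated in inherited magnesium loss, which ran from 8984 to 14334 CPM (median 11135) and from 6345 to 9684 CPM (median 7227) (log2 fold -0.57 ± 0.093 (SE), edgeR adjusted p = 7.47e-05), and the channel gene Trpm7, from 235 to 459 CPM (median 303) and from 71.4 to 221 CPM (median 196) (log2 fold -0.75 ± 0.14 (SE), edgeR adjusted p = 0.000402). The Trpm7 ranges did not overlap and those of Fxyd2 did. The main magnesium channel gene Trpm6 was measured at 130.2 ± 45.7 CPM in early and 109.8 ± 48.3 CPM in late cells (mean ± SD, n = 7), without passing the test (log2 fold -0.21 ± 0.16 (SE), edgeR adjusted p = 0.404). Outside the filter 1 of the genes was higher and 1 lower, against 1.42% and 1% of all genes in the fit without it. Arl15, a small GTPase-like gene, gave 2 early and 154 late UMIs, a pooled ratio of 12.8 (exact 95% interval 3.49 to 107) (edgeR adjusted p = 6.83e-05 without a filter). Erbb4, of the EGF receptor family, gave 26 early and 48 late UMIs (fitted log2 fold -1.55, edgeR adjusted p = 0.0368 without a filter), and this call was lost when library 2, 3, 5 or 6 was left out (edgeR adjusted p = 0.0697 to 0.969) and without libraries 3 and 4 (0.051 as adjusted p).

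The potassium and chloride channel, sodium pump and junction genes that passed the filter shifted by less than 2-fold. Kcnj16, a subunit of the basolateral potassium channel, ran from 143 to 243 CPM (median 193) in early and from 214 to 405 CPM (median 332) in late cells (log2 fold 0.67 ± 0.11 (SE), edgeR adjusted p = 0.000119). Of the 4 tested members of the channel list, 2 were higher and none lower, against 10.9% and 13.2% of all genes tested. Outside the filter 1 of its genes was higher, against 1.42% of all genes in the fit without it. This was the potassium channel subunit gene Kcne1, with 1 early and 80 late UMIs, a pooled ratio of 13.3 (exact 95% interval 2.33 to 533) (edgeR adjusted p = 0.00714). That call was lost without library 2, 4 or 6 (edgeR adjusted p = 0.0672, 0.0581 and 0.0789), and Kcne1 is also on the principal marker list. The pump's beta subunit gene Atp1b1 was higher (log2 fold 0.41 ± 0.092 (SE), edgeR adjusted p = 0.00171), a call lost without TMM scaling (0.19, edgeR adjusted p = 0.0927) and without cells over 30% mitochondrial (0.32, edgeR adjusted p = 0.0783), while its regulator Fxyd2 was lower, as given above.

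Cdh16, the kidney-specific cadherin, ran from 166 to 341 CPM (median 286) in early and from 343 to 810.1 CPM (median 498) in late cells, without overlap (log2 fold 0.82 ± 0.12 (SE), edgeR adjusted p = 1.24e-05). One reporter mouse carried a Cre named for this gene, and its part in the value was not tested because libraries are not linked to mice. The claudin gene Cldn8, which seals the paracellular path for cations, was higher by 0.57 ± 0.15 (SE; edgeR adjusted p = 0.00819) on the log2 scale, and not called without library 5 (0.52, edgeR adjusted p = 0.0851) or without TMM scaling (0.38, edgeR adjusted p = 0.0626). Cldn4, its partner claudin, gave 2 early and 246 late UMIs, a pooled ratio of 20.5 (exact 95% interval 5.61 to 170.2) (edgeR adjusted p = 1.22e-08 without a filter). Among the 18 junction genes, 4 passed the filter, 2 of them higher and none lower, against 10.9% and 13.2% of all genes tested. Outside the filter Cldn4 was higher and Cldn19, given above, lower.

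Of 30 transcription factor genes listed, 9 passed the filter, and 1 was higher and 1 lower, against 10.9% higher and 13.2% lower among all genes tested. Tfcp2l1, a factor of distal nephron and collecting duct, ran from 124 to 193 CPM (median 128) in early and from 198 to 405 CPM (median 234) in late cells, without overlap (log2 fold 0.87 ± 0.14 (SE), edgeR adjusted p = 4.34e-05). Lhx1, a factor of tubule development, was lower in late cells of 6 of 7 libraries (log2 fold -0.65 ± 0.18 (SE), edgeR adjusted p = 0.00936), at 283 ± 86.5 CPM and 142 ± 93.1 CPM (mean ± SD, n = 7). It was not called with cells thinned to 1000 UMIs (-0.19, edgeR adjusted p = 0.683). Whether the counting used the strand is not given in the sources used here, so reads of Lhx1 and its neighbour Lhx1os may not be separate. Tfap2b, which is needed for the distal tubule to form, did not pass (log2 fold 0.24 ± 0.17 (SE), edgeR adjusted p = 0.343). Outside the filter, Tbx2 gave 6 early and 538 late UMIs (fitted log2 fold 4.04, edgeR adjusted p = 8.64e-19) and Gata2 1 and 94 UMIs, a pooled ratio of 15.7 (exact 95% interval 2.74 to 625.3). Both were higher in late cells of 7 of 7 libraries.

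In the main fit, nuclear and mitochondrial genes of the respiratory chain moved in opposite directions. Of the 44 nuclear genes of oxidative phosphorylation, 33 were lower in late cells and none higher, against 13.2% and 10.9% of all genes tested, with a median log2 fold of -0.38. Atp5l, a subunit of ATP synthase, ran from 2235 to 3672 CPM (median 3295) in early and from 1367 to 2288 CPM (median 2211) in late cells (log2 fold -0.66 ± 0.075 (SE), edgeR adjusted p = 6.49e-07). It was lower in 7 of 7 libraries, with overlap. The cytochrome oxidase genes Cox6c (-0.61) and Cox4i1 (-0.35) and Ndufa4 (-0.57) were lower in 7 of 7 libraries as well (edgeR adjusted p = 4.31e-06, 0.00135 and 6.18e-06).

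Of the 13 mitochondrially encoded genes, 9 were higher and none lower, with a median of 0.28. Without library 4, as without libraries 3 and 4 together, 1 of the 13 was called, and without TMM scaling none was (median 0.08). None was called without a filter or without the library block, 1 with depth-matched cells and 2 of 12 with thinned cells. For mt-Atp6 the levels ran from 41321 to 66173 CPM (median 53734) in early and from 54845 to 89161 CPM (median 67467) in late cells (log2 fold 0.37 ± 0.099 (SE), edgeR adjusted p = 0.00782). The nuclear genes were 36 lower of 44 without libraries 3 and 4 and 42 lower without TMM scaling. The number lower was 18 without a filter, 14 without the library block, 23 with depth-matched cells and 24 with thinned cells. After cells with proximal tubule or loop of Henle markers were left out, 0 of 40 and 9 of 43 were lower, in the few cells that remained. Median mitochondrial shares per cell, at 32.2% and 31.3%, count the same transcripts before Pvalb and Calb1 were removed. By library, the late median was the higher in 5 of 7.

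**Figure D4:**
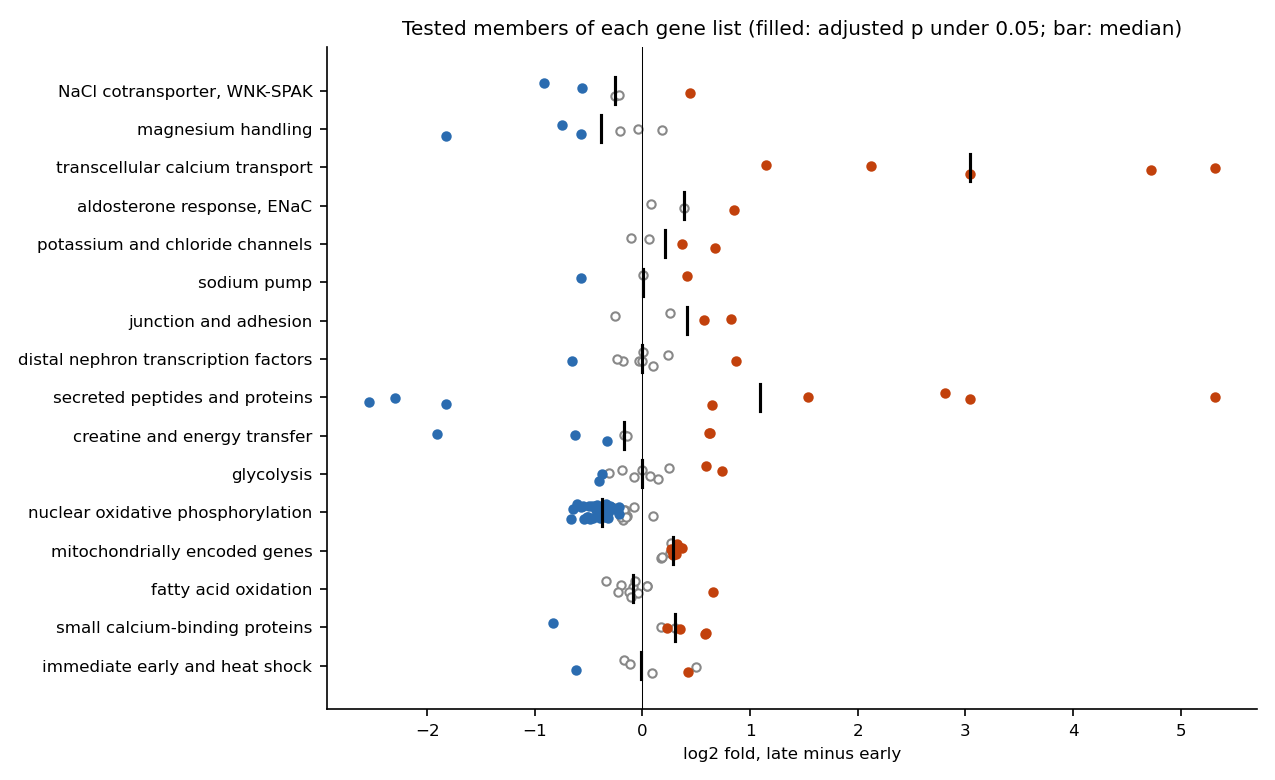
Log2 fold of late over early cells (horizontal axis) for every member of the 16 gene lists that passed the filter; each point is a gene, filled where its adjusted p is under 0.05, and bars mark the median of each list. Calcium transport lies to the right of 0 throughout, and 43 of the 44 nuclear respiratory genes lie to its left.

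Genes of energy transfer and of fuel use were mixed. Against the fall of Ckb, the mitochondrial creatine kinase gene Ckmt1 was higher in late cells (log2 fold 0.63 ± 0.18 (SE), edgeR adjusted p = 0.0125) and so was Gatm, which makes the precursor of creatine (log2 fold 0.62 ± 0.15 (SE), edgeR adjusted p = 0.00291). Ckmt1 missed the threshold without TMM scaling (0.45, edgeR adjusted p = 0.0636) and without libraries 3 and 4 (0.59, edgeR adjusted p = 0.0517), and Gatm missed it without library 5 (0.36, edgeR adjusted p = 0.233) and with depth-matched cells (0.33, edgeR adjusted p = 0.411). The adenylate kinase gene Ak1 was lower (log2 fold -0.63 ± 0.17 (SE), edgeR adjusted p = 0.00778), and the list held 2 higher and 3 lower genes of 7 tested. In glycolysis 2 of 11 tested genes were higher and 2 lower. In fatty acid oxidation 1 of 11 tested genes was higher and none lower. Among all genes tested the shares were 10.9% higher and 13.2% lower. Among immediate early and heat shock genes, which respond to tissue dissociation, Hsp90ab1 was higher (log2 fold 0.43 ± 0.092 (SE), edgeR adjusted p = 0.00117) and Ier3 lower (log2 fold -0.62 ± 0.17 (SE), edgeR adjusted p = 0.0103), 1 in each direction of 6 tested. Hsp90ab1 was not called without TMM scaling (0.23, edgeR adjusted p = 0.0751). Ier3 was not called without library 6 (-0.54, edgeR adjusted p = 0.0574). Small calcium-binding proteins other than the genes of the rule were higher for 4 and lower for 1 of 7 tested.

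Markers of other cell types were followed beside these results. Proximal tubule markers summed to 3269.6 to 9199.8 CPM in early and 3143 to 14824 CPM in late cells, higher in late cells of 5 of 7 libraries, with none of the 12 at 0. Of 6 tested, 4 were higher, against 10.9% of all genes tested. Among the 4 were Miox (0.74 ± 0.16 (SE; edgeR adjusted p = 0.00141)), Slc34a1 (0.78 ± 0.19 (SE; edgeR adjusted p = 0.00349)) and Lrp2 (1.04 ± 0.21 (SE; edgeR adjusted p = 0.000768)). In the proximal tubule these serve the breakdown of a sugar alcohol, phosphate uptake and protein uptake, in that order. Slc34a1 was not called without library 5 (0.70, edgeR adjusted p = 0.0633). Depth-matched cells gave no call for Miox (0.35, edgeR adjusted p = 0.437) or Slc34a1 (0.48, edgeR adjusted p = 0.165). The part of proximal tubule RNA in the other results was not tested beyond leaving out cells with at least 2 such UMIs, which kept 25 early and 172 late cells in 2 libraries with both classes.

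Intercalated cell markers summed to 0 to 158 CPM in early and 92.5 to 232 CPM in late cells, with 1 of 9 at 0 in early cells. In the fit without a filter 1 of the 9 was higher, against 1.42% of all genes there. Endothelial, immune, podocyte, mural and proliferation lists each stayed at or below 48.6 CPM in every sum. Of the 8 endothelial markers 4 were at 0 in early cells, of the 10 immune markers 5, of the 5 podocyte markers 2 and of the 6 mural markers all 6. Red cell transcripts reached 13019 CPM in the early sum of library 4. Hbb-bs gave 6029.5 CPM in that sum and at most 21.4 CPM in any other early sum. The haemoglobin genes were called lower in late cells in the fit without a filter (Hbb-bs -2.45, edgeR adjusted p = 2.53e-09). Without library 4 the sign turned (Hbb-bs 2.69 and Hba-a1 6.66), so no direction is given for them.

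Double-positive cells, with at least 2 UMIs of both Pvalb and Calb1, were then placed between the classes with all 3 in 1 fit of 3419 genes. Against early cells 21 genes were higher (0.614%) and 16 lower (0.468%). Against late cells 354 were higher (10.4%) and 387 lower (11.3%). In total the early sums held far fewer UMIs than the late ones, though more in libraries 3 and 4, so these numbers do not measure distance. Against early cells, 37 genes in all, the count was 24 without library 3, 21 without library 4 and 12 without both. Against late cells, 741 in all, it was 377 without library 5. Single genes were not followed in these alternative fits. The calls named below for double-positive cells are therefore given for all 7 libraries only. For the 126 genes higher in late cells, the median log2 fold was 0.17 against early and -0.40 against late cells, and for the 152 lower genes -0.15 and 0.38. The comparisons share the double-positive sums and the first set of calls used the same early and late cells, so these medians only describe position.

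Calcium genes stood between the classes. S100g lay at 3156 ± 2018 CPM in early, 10878 ± 6684 in double-positive and 68029 ± 27236 in late cells (mean ± SD, n = 7, scaled in this fit). It differed from early cells by 1.71 ± 0.20 (SE; edgeR adjusted p = 4.08e-10) and from late cells by -2.97 ± 0.20 (SE; edgeR adjusted p = 2.70e-22) on the log2 scale. Kl, at 666 ± 199 CPM, differed by 1.48 ± 0.14 (SE; edgeR adjusted p = 3.35e-13) and -1.52 ± 0.10 (SE; edgeR adjusted p = 1.50e-22). Spp1 and Clu likewise differed from both classes, by 1.12 ± 0.14 (SE; edgeR adjusted p = 1.88e-09) and 0.99 ± 0.13 (SE; edgeR adjusted p = 9.98e-09) from early cells and by -1.63 ± 0.11 (SE; edgeR adjusted p = 9.00e-22) and -1.52 ± 0.094 (SE; edgeR adjusted p = 1.92e-24) from late cells.

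For Slc12a3, Egf and Hsd11b2, double-positive cells differed from late cells and did not pass the test against early cells. Slc12a3, at 3838 ± 339.6 CPM in double-positive cells, was higher than in late cells (0.68 ± 0.11 (SE; edgeR adjusted p = 5.08e-07)) and did not pass the test against early cells (0.082 ± 0.11 (SE; edgeR adjusted p = 0.857)). Egf, at 3385 ± 1119 CPM, gave the same pattern, with 1.70 ± 0.14 (SE; edgeR adjusted p = 2.81e-17) against late and -0.17 ± 0.14 (SE; edgeR adjusted p = 0.713) against early cells. Hsd11b2 lay at 2.97 ± 4.13 CPM, far under late cells (-4.73 ± 0.22 (SE; edgeR adjusted p = 1.21e-32)) without passing the test against early cells (0.30 ± 0.70 (SE; edgeR adjusted p = 0.932)). Scnn1b, at 21.5 ± 9.55 CPM, passed against both, by 2.67 ± 0.56 (SE; edgeR adjusted p = 0.0016) and -2.61 ± 0.15 (SE; edgeR adjusted p = 1.67e-25). Wfdc15b (-0.69 ± 0.11 (SE; edgeR adjusted p = 8.13e-06)) and Pigr (-1.10 ± 0.18 (SE; edgeR adjusted p = 8.13e-06)) were lower than in early cells, and higher than in late cells by 1.99 ± 0.12 (SE; edgeR adjusted p = 6.53e-25) and 1.52 ± 0.17 (SE; edgeR adjusted p = 3.72e-12). Double-positive cells were deeper, at a median of 3227 UMIs, and without the cells of highest doublet score the counts were 32 genes against early and 575 against late cells.

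**Figure D5:**
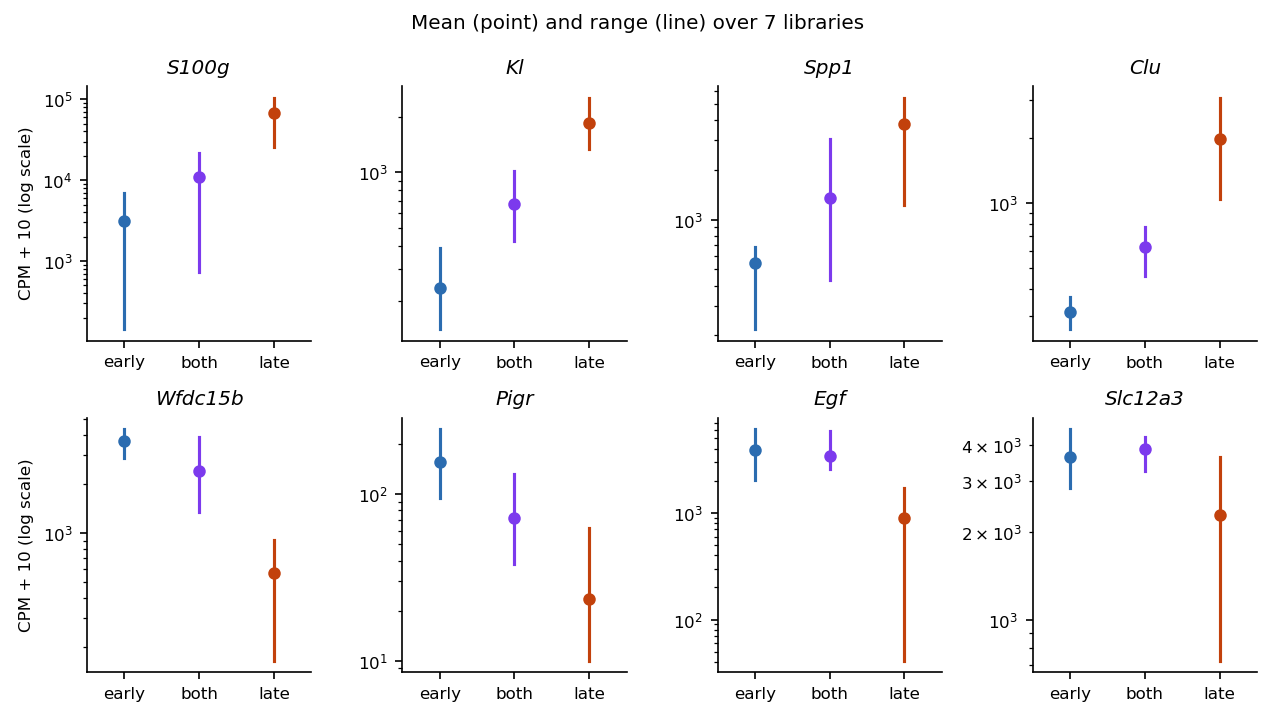
Levels of 8 genes in early, double-positive ("both") and late cells, as CPM plus 10 on a log scale; points are means and lines the range over 7 libraries. For Egf and Slc12a3 double-positive cells did not pass the test against early cells.

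Cells at the edge of the rule were described without a test. A single UMI of Pvalb with none of Calb1 was found in 348 cells, exactly 2 in 186 and more than 2 in 347 of the early cells. A single UMI of Calb1 with none of Pvalb was found in 612 cells, exactly 2 in 405 and more than 2 in 2421 of the late cells. S100g lay at 3617 ± 3261, 2570.1 ± 2484 and 3418 ± 2445 CPM over the 3 steps of Pvalb and at 18068 ± 11347, 32828 ± 24776 and 66993 ± 24155 CPM over the 3 steps of Calb1 (mean ± SD over 6 or 7 libraries, unscaled). Wfdc15b lay at 3026 ± 773, 3506 ± 1419.9 and 3903 ± 587 CPM and at 1477 ± 852, 1211 ± 757 and 432 ± 233 CPM. The cells just outside the late threshold were thus nearer to the early cells in these 2 genes than the cells well inside it, and the steps of Pvalb overlapped within their spread.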

How the data were processed

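Whole kidneys of 7 mice were profiled with the 10x Chromium 3′ kit, per the labels' protocols, and the submitters' processing notes name Cell Ranger 1.3, STAR and the builds mm10 and GRCm38.p4. The authors deposited 1 matrix of raw UMI counts, 16272 genes by 43745 cells, with a cluster number for each cell; the labels state 57979 cells. The cell filters, the clustering, any removal of doublets and the use of strand in counting are not given in the sources used here.

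From these counts, cells of cluster 5 were assigned to classes and summed per library, where a library held at least 5 cells of the class. Sums held 31592 to 5390862 UMIs. The early sums other than that of library 5, and the late sums of libraries 3 and 4, thus give the least precise values. Pvalb and Calb1 were left out. Sums were tested with edgeR 4.0.16 in R 4.3.3 (quasi-likelihood F test, TMM factors, filterByExpr by class), with Benjamini-Hochberg adjustment over all genes tested and a threshold of 0.05. Library entered as a block, because early and late cells of a library come from the same animal; the fit without it is an alternative. Genes outside the filter were tested in a fit of all 14605 genes with a UMI. On simulated counts for the 1153 genes, the test recovered 83% of 2-fold and 97% of 4-fold changes. It called 9 of the 852 unchanged genes that passed the filter there. Every gene was simulated with the same dispersion, 0.0108, and with library effects shared by both classes. These rates therefore do not cover genes that vary more, or whose class difference varies between libraries.

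Against a class with 0 UMIs, folds are lower bounds from a floor of 3 UMIs over the class. With 1 to 3 early UMIs, the ratio of pooled counts has an exact 95% interval, which covers counting error only. Shares of cells with a UMI were taken after thinning to 1000 UMIs, which left out 23 early and 154 late cells. Python 3.11.15 with numpy 2.4.6, scipy 1.17.1, pandas 2.3.3, scanpy 1.11.5 (Scrublet scores, no cell removed in the main result) and matplotlib 3.10.9 was used. Alternatives were DESeq2 1.42.0 and its size factors, other class thresholds, depth matching, and leaving out libraries or cells; those on libraries 3 and 4 and on TMM were chosen after seeing the data.

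The genes named were the 12 largest folds in each direction with the same sign in every library, the 8 smallest adjusted p in each direction, and members of the gene lists. The cells, lists and rules were chosen with earlier results of these data known. Some genes and labels that the rule takes are not reported here.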

Additional observations from a re-analysis of the deposited data

Results flagged for a closer look

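For each gene followed with both classes in all 7 libraries, the log2 difference of late minus early cells was compared across libraries, and 7 of 62 genes had 1 library far from the others. The gap to the nearest library exceeded 0.568 of the whole range, which chance gives for about 1 in 20 genes. In 5 of the 7 genes the library was number 3, whose late sum held 14 cells and 31592 UMIs. There the difference was -5.14 for Lhx1, -4.67 for its neighbour Lhx1os, -4.18 for Nabp1, -2.83 for Lrp2 and -2.45 for Fabp3. Lrp2 was higher in late cells in the other 6 libraries. Wfdc2 stood apart in library 6, with a difference of 2.27, and Scnn1a in library 1, with 1.35. The part of the small late sum of library 3 in these values was not tested.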

How the results depend on the processing

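Of 81 genes followed, 71 were called, and over 1447 combinations of called gene and alternative setting, 1303 kept direction and call, 136 kept direction and lost the call, and 8 turned direction. The number of genes higher in late cells, 126, became 207 without a filter on low counts, 198 without libraries 3 and 4, 56 in those libraries alone and 68 without TMM. The 207 held only 56 of the 126, and the 146 genes lower without a filter held 71 of the 152. Wnk1, Atp1b1, Cldn8, Ckmt1, Gatm, Ak1, Cox4i1, mt-Atp6 and Hsp90ab1 were among the genes that lost their call without the filter. It became 69 with depth-matched cells, 62 with thinned cells, 53 without cells over 30% mitochondrial, 42 without cells bearing loop of Henle markers and 9 without those bearing proximal tubule markers. The number lower, 152, became 101 with DESeq2's Wald test, 31 in libraries 3 and 4 alone and 305 without TMM. In the same order of cell filters it became 72, 68, 65, 25 and 4. These filters leave fewer cells and fewer genes tested. Leaving out 1 library at a time gave 84 to 178 higher and 88 to 207 lower, and for double-positive cells 21 to 40 genes against early and 377 to 820 against late cells; without libraries 3 and 4 the former was 12.

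Without the replicate block, which ignores that classes of a library are paired, 53 genes were higher and 58 lower, and 5 and 143 differed between double-positive cells and early or late cells. Directions turned for Ppp1r1a (0.26), Atp1b1 (-0.041) and Slc12a3 (0.024) without cells bearing proximal tubule markers. They turned for Slc12a3 (0.076) and Wnk4 (0.25) without cells bearing loop markers, and for mt-Co1 (-0.041) without TMM. Sostdc1, not called, ran from -0.32 to 0.12 with 1 library left out, turning without library 5, and turned with thinned cells (0.043) and in libraries 3 and 4 alone (0.019). Hbb-bs (2.69 and 3.18) and Hba-a1 (6.66 and 7.00) turned without library 4 and without libraries 3 and 4. Apart from these constructions, the cause was not tested. Early sums limit depth: a gene unseen in them may lie at up to 2.14 CPM.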

Other observations

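The genes in this paragraph and the next were chosen after their values were seen, and they are given as values. Among genes too sparse for the filter, several gave next to no UMIs in early cells. Olfm1, a secreted olfactomedin, gave 0 early and 275 late UMIs, at 48.7 ± 23.02 CPM in late cells (mean ± SD, n = 7), and Pon3, a paraoxonase, 0 and 139. Ptges, which makes prostaglandin E, gave 1 and 522 UMIs, and Rhbg, an ammonia transporter of the distal nephron, 3 and 655 UMIs, at 115 ± 59.3 CPM in late cells. Each was higher in late cells of 7 of 7 libraries in the fit without a filter (edgeR adjusted p = 9.57e-14, 2.83e-06, 1.11e-21 and 9.91e-24).

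Subunits of the vacuolar proton pump, which acidifies vesicles and, in intercalated cells, urine, were higher for 5 of 9 tested and lower for none, against 10.9% higher and 13.2% lower among all genes tested. Atp6v1a, its catalytic subunit, lay at 226 ± 42.1 CPM in early and 406 ± 60.8 CPM in late cells, with a log2 fold of 0.72 (edgeR adjusted p = 0.000129). Atp6v0e, Atp6v0b, Atp6v1e1 and Atp6v1f were the other 4, each higher in 7 of 7 libraries. The intercalated cell markers, given above, were also higher in late cells in their sum, and their part in these values was not tested. Of 13 near-identical copies of Klk1, all of them sparse, 7 were higher in late cells in the fit without a filter, against 1.42% of all genes there.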
